A study of Homo sapiens with 90 samples.

Results

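The p53 target genes described here are a group of 10 named genes, CDKN1A, MDM2, TP53I3, SESN1, GDF15, BBC3, FAS, RRM2B, ZMAT3 and BTG2. They were listed by name and not by a cut on their values, but with earlier results of these data known. Every probe set that the probe annotation assigned to 1 of these symbols alone was used. This gave 26 probe sets for 9 genes, of 40914 such probe sets for 19774 genes on the array. MDM2 had 9 probe sets, FAS and ZMAT3 had 5 each, CDKN1A had 2, and TP53I3, SESN1, GDF15, BBC3 and RRM2B had 1 each. BTG2 was not analysed here. Probe sets of 1 gene share their transcript and are not replicates of a condition.

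Gene expression was measured on Affymetrix arrays in HepG2, an established human liver tumour cell line, after 24 h with fenbuconazole, imazalil or 2,4-D. The first is a triazole fungicide and the second an imidazole fungicide, whereas 2,4-D (2,4-dichlorophenoxyacetic acid) belongs to the chlorophenoxy herbicides. The cells of a compound's set received 1 of 9 doses between 0.001 and 10 µM, with 3 arrays for each. Cells that received the DMSO vehicle alone gave 3 arrays, which served all 3 compounds, and every culture held 0.2% DMSO. The authors normalized the arrays of each compound together with copies of the same 3 DMSO arrays, so each compound was compared with the DMSO values of its own set. In the study's methods the replicates of the other cell lines were separate experiments on separate batches of cells, but HepG2 is not named there. The HepG2 labels carry a code, P1 to P3, that equals the replicate number and is not explained. If the replicates do not come from separate cultures, the p-values measure only the spread between these arrays, which may be technical.

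p53 is a transcription factor that is held at a low level by MDM2 and accumulates after DNA damage and some other stresses. It then binds near its target genes and raises their transcription, which can stop the cell cycle, repair DNA or start apoptosis. In liver cells this set of genes is a common readout of genotoxic stress.

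The values were log2 intensities, on which a difference of 1 is a doubling of signal. Array medians lay between 3.24 and 3.44. Arrays of the same group had r of 0.992 to 0.998 with one another over probe sets, which are not independent replicates. Of the 9 hepatocyte markers measured (such as ALB, TTR and APOA1), 9 had mean values from 10.07 to 13.07 and lay above the highest array median, whereas 1 of 7 mesenchymal and 1 of 7 blood and endothelial markers did. Of the 26 member probe sets, 22 had a mean above the median of all probe set means (3.31). Precision is limited by the small number of arrays, 3 in a group.

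The binding site of p53 was looked for in the RefSeq promoter windows of the members, which run from 250 bases before to 50 bases after a transcript start in GRCh38.p14. The motif was the full p53 consensus, a 20-base pattern of 2 abutting decamers which reads the same on both strands, and at most 3 mismatches were allowed. This rule was settled after matches in the members' windows had been seen, as the last of 3 ways of matching. Of 35116 windows of all genes, 5.2% held such a match. Among the members, 8 of 9 genes had windows, 16 in all, and 5 windows of 4 genes (MDM2, SESN1, GDF15 and FAS) held a match. A stricter way, tried before it, kept the C and G of both decamers fixed. It found the same 4 genes and 5 windows beside 1.12% of all windows, but 1 match in place of 2 in MDM2, and was dropped because it passed over that match, which lies in a known p53 element of MDM2. The first way, a single decamer without a mismatch, matched 2 windows (FAS and SESN1) beside 6.63% of all windows. The 20-base ways were also tried with at most 2 mismatches and matched 3 windows, of FAS and MDM2 alone. Of all windows, 0.649% then held a match, and 0.285% with the C and G fixed. The 20-base matches of SESN1 and GDF15 thus rest on the limit of 3 mismatches. No match to these letters lay in the windows of CDKN1A, TP53I3, BBC3 and ZMAT3. This says nothing about sites elsewhere or with bases between the decamers. The best window of each of the 4 genes is given here to show what the matched element looks like, with the matches in capitals. For GDF15 the match alone is shown, since it lies after the transcript start.
MDM2, chr12:68808903-68809000, plus strand: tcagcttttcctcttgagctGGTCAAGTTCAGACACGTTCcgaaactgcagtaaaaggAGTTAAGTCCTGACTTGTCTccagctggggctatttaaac
FAS, chr10:88991289-88991348, plus strand: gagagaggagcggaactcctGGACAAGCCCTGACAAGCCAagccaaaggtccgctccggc
SESN1, chr6:109008998-109009057, minus strand: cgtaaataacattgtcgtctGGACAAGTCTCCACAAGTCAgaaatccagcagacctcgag
GDF15, chr19:18386186-18386205, plus strand: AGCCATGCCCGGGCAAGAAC
The MDM2 stretch precedes 1 of its 4 listed transcript starts and held 2 matches, which begin at -94 and -56 from that start with 2 and 3 mismatches. Of the 4 MDM2 windows, 2 held a match. Whether these windows overlap was not checked, so the same bases may be counted in both. The FAS match begins at -122 with 2 mismatches, the SESN1 match at -49 with 3 mismatches, and the GDF15 match at 29 with 3 mismatches. These matches are a description of the reference sequence and not a measurement of binding.

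The first comparison asked which members differed from DMSO at 10 µM, the highest dose. None of the 26 member probe sets passed the test with any compound (limma, adjusted p of 0.05 or higher, Benjamini-Hochberg over all 40914 probe sets). The lowest adjusted p among the members was 0.999 with fenbuconazole, 0.850 with imazalil and 1.00 with 2,4-D. Of all probe sets, 4 passed with fenbuconazole (0.00978%), 19 with imazalil (0.0464%) and 0 with 2,4-D (0%). At an unadjusted p under 0.05, 2 of 26 member probe sets stood with fenbuconazole, 3 with imazalil and 0 with 2,4-D, beside 4.40%, 5.44% and 4.07% of all probe sets.

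The medians of the member differences were 0.023, 0.0051 and -0.0063 (log2, 10 µM minus DMSO) with fenbuconazole, imazalil and 2,4-D. Over all probe sets they were -0.0017, -0.0021 and -0.00011. The members lay above DMSO in 14, 13 and 11 of 26 probe sets. The highest upper bound of a 95% interval over the 26 probe sets was 1.56-fold with fenbuconazole, 1.43-fold with imazalil and 1.37-fold with 2,4-D. The lowest lower bounds were 0.512-fold, 0.687-fold and 0.712-fold. Each interval covers 1 probe set and was not widened for their number. The median standard error of a difference was 0.13 with fenbuconazole, 0.13 with imazalil and 0.13 with 2,4-D (log2).

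**Figure D1:**
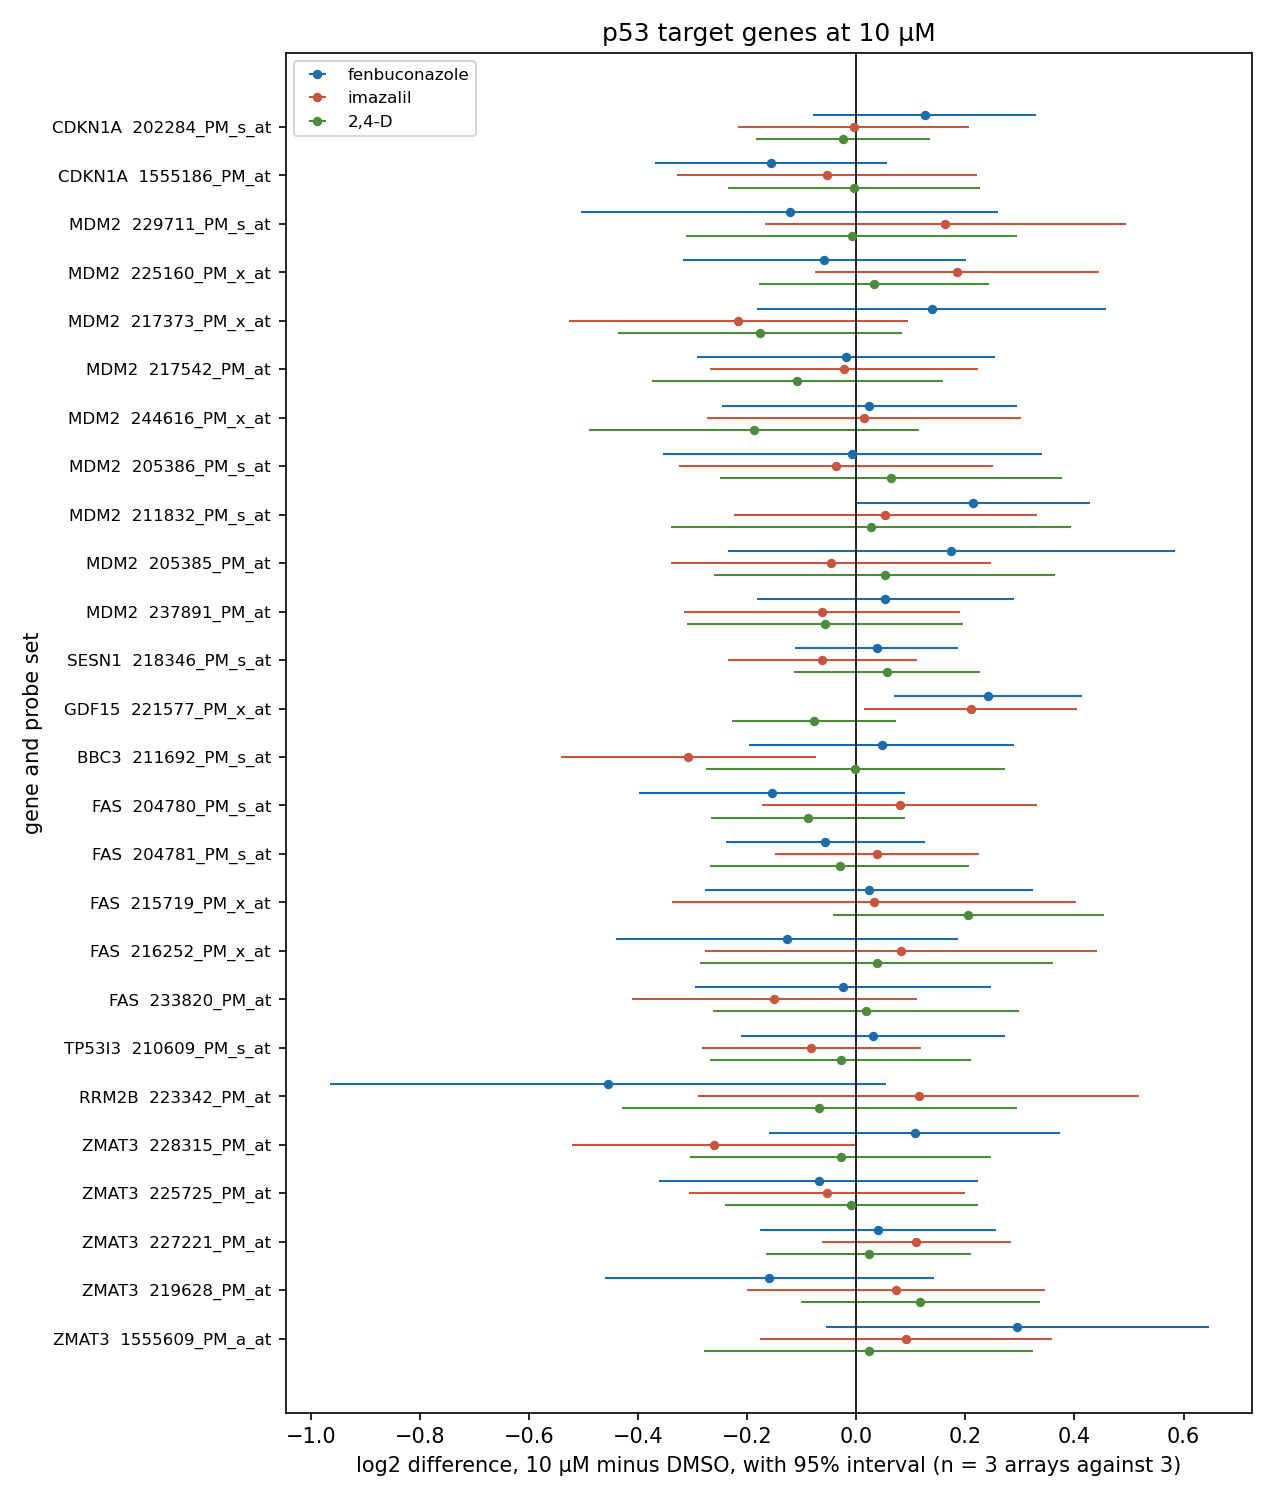
Log2 difference between 10 µM and DMSO (x axis) for each of the 26 probe sets of 9 p53 target genes (y axis), with points for the estimate and bars for the 95% interval, coloured by compound (3 arrays against 3). Most intervals cross 0, and GDF15 lies to the right of 0 with fenbuconazole and imazalil (0.24 and 0.21) but not with 2,4-D (-0.078).

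CDKN1A encodes p21, the inhibitor of cyclin-dependent kinases through which p53 arrests the cell cycle. Its brighter probe set, 202284_PM_s_at, had DMSO values of 6.56, 6.86 and 6.95 in the fenbuconazole set and values of 6.74, 6.94 and 7.07 at 10 µM. The groups overlapped, and 1 DMSO array lay below the other 5. The difference was 0.13 ± 0.099 (log2, SE, 95% interval -0.079 to 0.33, limma adjusted p = 0.999), or 1.09-fold. It was 0.012 without DMSO replicate 1, 0.20 without DMSO replicate 3, 0.22 without replicate 1 at 10 µM and 0.048 without replicate 3 at 10 µM.

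With imazalil the DMSO values of CDKN1A were 6.53, 6.90 and 6.76 and the values at 10 µM were 6.65, 6.78 and 6.74, all within the range of DMSO. The difference was -0.0046 ± 0.10 (interval -0.22 to 0.21, limma adjusted p = 0.997). With 2,4-D the DMSO values were 6.70, 6.91 and 6.97 and the values at 10 µM were 6.79, 6.78 and 6.94, again inside the DMSO range, and the difference was -0.025 ± 0.078 (interval -0.18 to 0.13, adjusted p = 1.00). The lowest of the 3 DMSO arrays was replicate 1 in each set, as the sets hold copies of the same arrays. The other probe set of CDKN1A, 1555186_PM_at, had a mean of 2.94, below the lowest array median. Its difference at 10 µM was -0.16 with fenbuconazole, -0.054 with imazalil and -0.0039 with 2,4-D.

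MDM2 encodes the ubiquitin ligase that marks p53 for degradation, and its own induction by p53 closes a feedback loop. Its brightest probe set, 229711_PM_s_at, had DMSO values of 8.77, 8.29 and 8.51 in the fenbuconazole set and values of 8.68, 8.28 and 8.24 at 10 µM. With imazalil the DMSO values were 8.71, 8.23 and 8.41 against 8.44, 8.57 and 8.83, and with 2,4-D they were 8.87, 8.38 and 8.59 against 8.96, 8.32 and 8.52. The groups overlapped with every compound, and replicate 1 was the highest of the 3 DMSO arrays. The differences were -0.12 ± 0.19, 0.16 ± 0.16 and -0.0087 ± 0.15 (log2, SE) with fenbuconazole, imazalil and 2,4-D, none of which passed (limma adjusted p = 0.999, 0.963 and 1.00).

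The 9 probe sets of MDM2 did not move one way. At 10 µM they ran from -0.12 to 0.21 with fenbuconazole (5 of 9 above DMSO), from -0.22 to 0.19 with imazalil (4 of 9) and from -0.19 to 0.063 with 2,4-D (4 of 9). The lowest unadjusted p of these with fenbuconazole belonged to 211832_PM_s_at, a dim probe set with a mean of 3.33. Its difference was 0.21 ± 0.10 (interval 0.00076 to 0.43, limma adjusted p = 0.999). The same probe set stood 0.34 above DMSO at 1 µM (limma adjusted p = 1.00) and 0.24 above it at 3 µM. With 2,4-D, 217373_PM_x_at and 244616_PM_x_at had differences of -0.18 ± 0.13 and -0.19 ± 0.15 (limma adjusted p = 1.00 for both).

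GDF15 encodes a secreted stress cytokine of the TGF-beta superfamily, which is raised by p53 and also by the integrated stress response. Its only probe set was 221577_PM_x_at. With fenbuconazole its DMSO values were 8.96, 8.86 and 8.94, and its values at 10 µM were 9.09, 9.27 and 9.14. All 3 arrays at 10 µM lay above all 3 DMSO arrays. The difference was 0.24 ± 0.084 (log2, SE, interval 0.069 to 0.41), or 1.18-fold, and did not pass (limma adjusted p = 0.999).

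With imazalil the DMSO values of GDF15 were 8.82, 8.78 and 8.82 and the values at 10 µM were 8.95, 9.12 and 8.98. The groups again did not overlap. The difference was 0.21 ± 0.095 (interval 0.014 to 0.41), or 1.16-fold, and did not pass (limma adjusted p = 0.896). With 2,4-D the DMSO values were 9.10, 9.00 and 9.12 and the values at 10 µM were 8.90, 9.08 and 9.01, which overlapped, and the difference was -0.078 ± 0.073 (interval -0.23 to 0.072, limma adjusted p = 1.00).

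Over all probe sets, the 3 arrays at 10 µM stood above the 3 DMSO arrays in 4.72% with fenbuconazole, 5.86% with imazalil and 3.63% with 2,4-D. Among the members this held for 2 of 26 (GDF15 and the ZMAT3 probe set 1555609_PM_a_at), 1 of 26 (GDF15) and 0 of 26. The 3 arrays stood below the DMSO arrays in 4.27%, 6.29% and 3.40% of all probe sets, and among the members in 0, 1 (BBC3) and 0 of 26. These shares are close to the background.

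The mean of GDF15 over the fenbuconazole doses from 0.001 to 10 µM was 8.91, 8.87, 8.97, 8.90, 8.87, 8.93, 8.99, 9.01 and 9.16 (log2 intensity). With imazalil it was 8.76, 8.64, 8.81, 8.69, 8.78, 8.85, 8.85, 8.80 and 9.02. The highest mean was at 10 µM with both fungicides, and the 8 lower doses lay between -0.055 and 0.086 of DMSO with fenbuconazole and between -0.17 and 0.044 with imazalil. With 2,4-D the means ran from 8.97 at 0.003 µM to 9.11 at 1 µM, around a DMSO mean of 9.07.

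A contrast that leaves out the shared DMSO arrays set 10 µM against the mean of the 3 lowest doses (0.001, 0.003 and 0.01 µM). The 9 low-dose arrays of GDF15 ran from 8.79 through a median of 8.90 to 9.06 with fenbuconazole, below all 3 arrays at 10 µM. With imazalil they ran from 8.51 through 8.71 to 8.97, and 1 of the 3 arrays at 10 µM lay within that range. The differences were 0.25 ± 0.068 and 0.28 ± 0.078, with limma adjusted p = 0.431 and 0.316. With 2,4-D the difference was -0.029 ± 0.060 (limma adjusted p = 1.00). Against the lowest doses 0 of 26 member probe sets passed with each compound, beside 0.0318%, 0.122% and 0% of all probe sets with fenbuconazole, imazalil and 2,4-D. At an unadjusted p under 0.05 there were 2, 3 and 1 of 26, beside 5.23%, 6.62% and 4.28% of all.

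**Figure D2:**
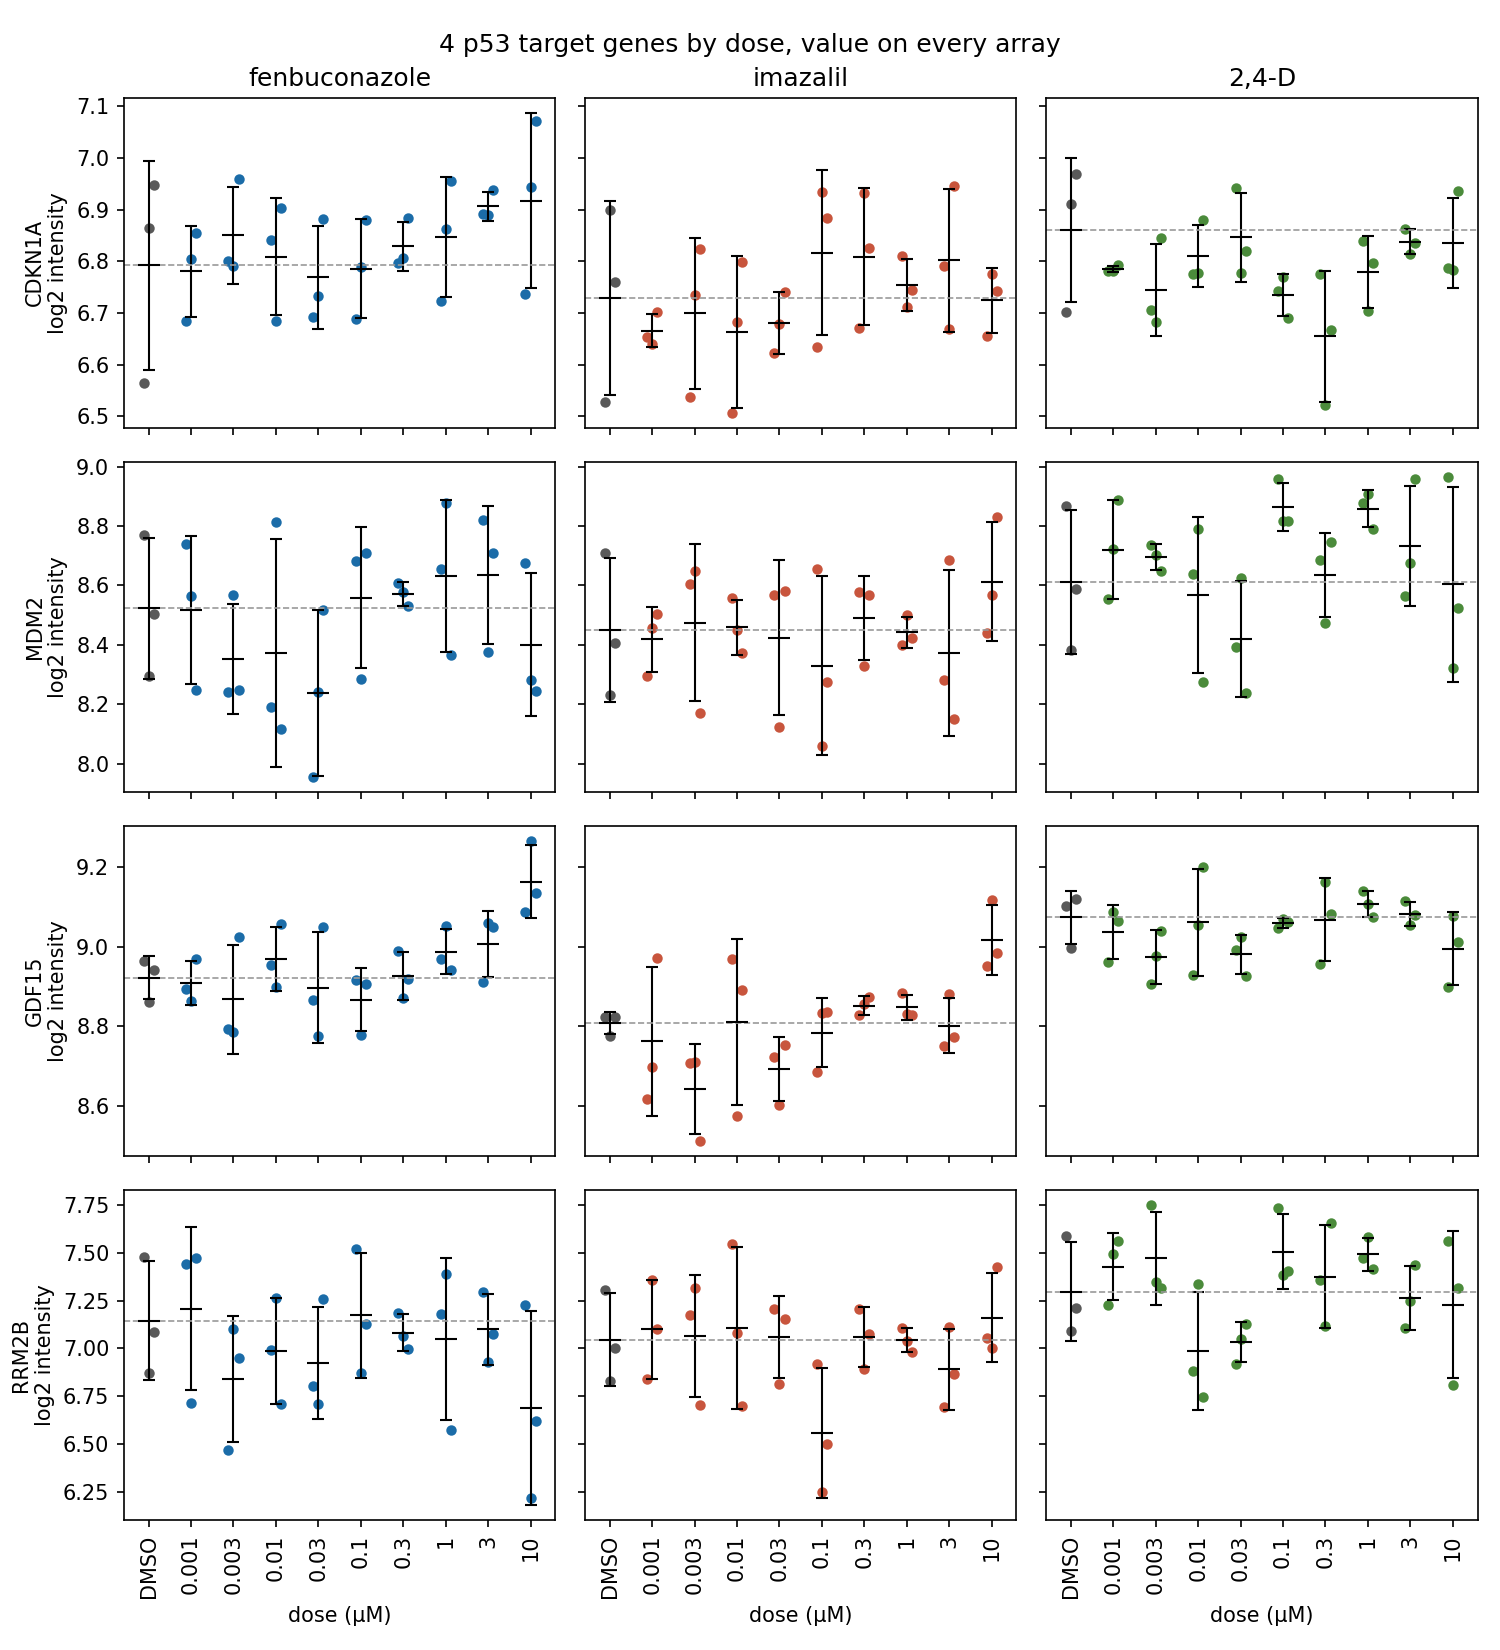
Log2 intensity (y axis) of CDKN1A, MDM2, GDF15 and RRM2B (rows, 1 probe set each) on every array against dose in µM, with DMSO in grey at the left (x axis, doses evenly spaced), for each compound (columns). Points are single arrays, black bars the mean ± SD of 3 arrays and the dashed line the DMSO mean of the set. GDF15 has its highest mean at 10 µM with fenbuconazole (9.16) and imazalil (9.02), while CDKN1A, MDM2 and RRM2B overlap DMSO at 10 µM.

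SESN1 encodes a sestrin, which restrains mTORC1 and takes part in the antioxidant defence. With fenbuconazole its DMSO values were 7.57, 7.63 and 7.58 and its values at 10 µM were 7.69, 7.70 and 7.51. With imazalil they were 7.59, 7.59 and 7.65 against 7.54, 7.67 and 7.44, and with 2,4-D 7.61, 7.74 and 7.69 against 7.70, 7.76 and 7.75. The groups overlapped in each case, and the differences were 0.037, -0.062 and 0.056. SESN1 had the narrowest interval of the members with fenbuconazole (-0.11 to 0.19, or 0.925-fold to 1.14-fold).

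BBC3 encodes PUMA, a BH3-only protein that starts mitochondrial apoptosis. With imazalil its DMSO values were 5.13, 5.09 and 5.25 and its values at 10 µM were 5.00, 4.92 and 4.63, all below the DMSO arrays. The difference was -0.31 ± 0.11 (interval -0.54 to -0.075), or 0.807-fold, and did not pass (limma adjusted p = 0.850). It was -0.20 without replicate 3 at 10 µM and -0.15 without replicate 3 in all groups. BBC3 had the lowest unadjusted p of the members in this comparison, and its direction was opposite to that of induction by p53. With fenbuconazole the values were 5.13, 5.17 and 5.22 with DMSO against 5.17, 5.24 and 5.25, and the difference was 0.046. With 2,4-D they were 5.37, 5.40 and 5.48 against 5.47, 5.43 and 5.35, and the difference was -0.0021. Over the 27 treated groups, which share the DMSO arrays, BBC3 lay above DMSO in 4, and its differences ran from -0.35 to 0.058. Against the 3 lowest doses, without the DMSO arrays, the difference was -0.17 ± 0.093 with imazalil (interval -0.36 to 0.017, limma adjusted p = 0.794). The values of 5.00 and 4.92 at 10 µM lay within the range of those low-dose arrays (4.90 to 5.24). With fenbuconazole that difference was 0.23 ± 0.097 (interval 0.032 to 0.43, limma adjusted p = 0.884), and with 2,4-D 0.14 ± 0.11.

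FAS encodes a death receptor at the cell surface, and TP53I3 encodes a quinone oxidoreductase linked to reactive oxygen species and apoptosis. The 5 FAS probe sets ran from -0.15 to 0.023 at 10 µM with fenbuconazole (1 of 5 above DMSO), from -0.15 to 0.082 with imazalil (4 of 5) and from -0.088 to 0.21 with 2,4-D (3 of 5). The last of these, 215719_PM_x_at, had the lowest unadjusted p of the members with 2,4-D (0.21 ± 0.12, interval -0.043 to 0.45, limma adjusted p = 1.00). TP53I3 had DMSO values of 7.96, 8.21 and 8.28 in the fenbuconazole set against 8.06, 8.22 and 8.26 at 10 µM. Its differences were 0.030, -0.083 and -0.029 with fenbuconazole, imazalil and 2,4-D, and over the 27 treated groups they stayed between -0.12 and 0.060, the narrowest range among the 26 probe sets.

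RRM2B encodes the p53-inducible subunit of ribonucleotide reductase, which supplies nucleotides for DNA repair. Its DMSO values were 7.48, 6.87 and 7.09 in the fenbuconazole set, and its values at 10 µM were 7.23, 6.22 and 6.62. Replicate 1 was the highest and replicate 2 the lowest in both groups. The difference of -0.46 ± 0.25 was the largest in size of any member at 10 µM but had a wide interval (-0.97 to 0.055, limma adjusted p = 0.999). It ran from -0.73 without replicate 1 at 10 µM to -0.22 without replicate 2 at 10 µM, and was -0.29 without DMSO replicate 1. With imazalil and 2,4-D the differences at 10 µM were 0.11 and -0.068.

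The lowest group of RRM2B was imazalil at 0.1 µM, at -0.49 ± 0.20 from DMSO (limma adjusted p = 0.819). The arrays of that group also had the narrowest spread of values of all groups, with a mean interquartile range of 3.59 against 3.66 for DMSO in the same set (log2). At 10 µM fenbuconazole this mean was 3.64 against 3.67 for DMSO. In a fit with the array spread as a covariate, no member probe set passed at the doses below 10 µM. The estimate at 0.1 µM was not read from that fit, so the part of the array spread in this difference was not tested.

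ZMAT3 encodes an RNA-binding zinc finger protein of the p53 response. Its brightest probe set, 228315_PM_at, had DMSO values of 7.93, 7.92 and 8.08 in the imazalil set and values of 8.01, 7.32 and 7.81 at 10 µM. The difference was -0.26 ± 0.13 (interval -0.52 to -0.00070, limma adjusted p = 0.917), and replicate 2 lay lowest. It was -0.065 without replicate 2 at 10 µM and -0.094 without replicate 2 in all groups, and -0.41 without replicate 1 at 10 µM. The other 4 probe sets of ZMAT3 with imazalil lay between -0.055 and 0.11. With fenbuconazole the 5 probe sets ran from -0.16 to 0.30, and the highest of them, 1555609_PM_a_at, had an interval of -0.055 to 0.65. With 2,4-D they ran from -0.029 to 0.12.

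At the 8 doses below 10 µM, 0 of 208 tests of member probe sets passed with each compound (limma, adjusted p of 0.05 or higher), beside 0%, 0.000306% and 0.000306% of all tests with fenbuconazole, imazalil and 2,4-D. At an unadjusted p under 0.05 there were 4, 5 and 7 of 208, beside 3.08%, 3.69% and 4.33% of all tests. The median of the members over the 9 doses ran from -0.053 to 0.023 with fenbuconazole, from -0.089 to 0.0051 with imazalil and from -0.055 to 0.030 with 2,4-D. It was above 0 at 10 µM of both fungicides and at 0.003 and 1 µM 2,4-D, and below 0 in the other groups. The members above DMSO numbered 6 to 14, 5 to 13 and 8 to 15 of 26. All doses of a compound are set against the same 3 DMSO arrays, so their differences are not independent of each other.

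**Figure D3:**
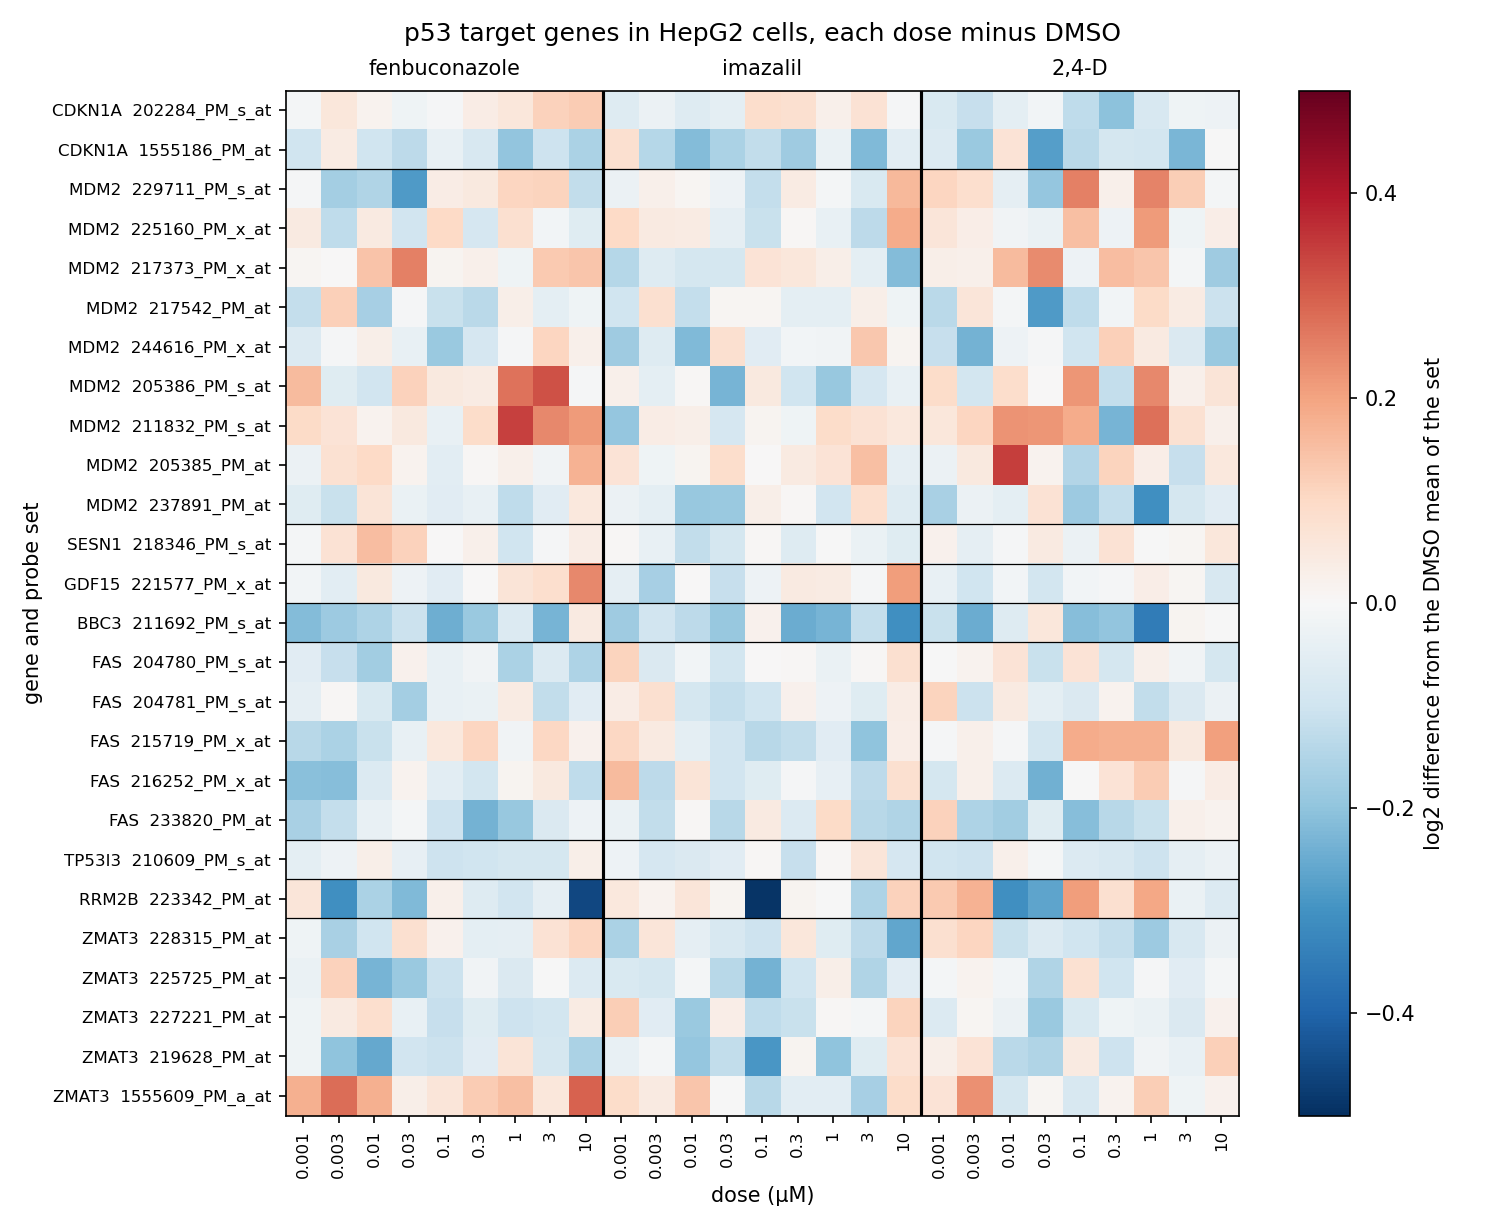
Log2 difference from the DMSO mean of the set (colour) for 26 probe sets of 9 p53 target genes (rows) at 9 doses in µM of each compound (columns, means of 3 arrays). Rows hold both red and blue cells, but often unequally. Groups above DMSO number from 3 of 27 (CDKN1A 1555186_PM_at) to 22 of 27 (MDM2 211832_PM_s_at). The strongest colours are RRM2B at 0.1 µM imazalil (-0.49) and 10 µM fenbuconazole (-0.46).

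The course over doses was tested in 2 further ways. The F test over the 9 doses passed for 0 of 26 member probe sets with each compound, beside 0.00733%, 0.0244% and 0% of all probe sets with fenbuconazole, imazalil and 2,4-D (at an unadjusted p under 0.05, 1, 1 and 0 of 26 beside 3.47%, 4.44% and 5.13%). The slope per 10-fold dose over the 27 treated arrays of a compound also passed for 0 of 26, beside 0.00978%, 0.0318% and 0% (unadjusted 3, 2 and 1 of 26 beside 6.07%, 6.44% and 4.82%). A slope is insensitive to a change at the highest dose alone. The slope of GDF15 was 0.050 ± 0.016 with fenbuconazole and 0.058 ± 0.018 with imazalil (log2 per 10-fold dose, limma adjusted p = 0.569 and 0.472), and 0.011 ± 0.013 with 2,4-D. The slope of CDKN1A was 0.028 ± 0.015, 0.028 ± 0.017 and 0.0077 ± 0.014 in the same order (adjusted p = 0.844, 0.858 and 0.998).

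The compounds were compared with each other at matched doses after subtraction of the DMSO mean of each set, in 3 pairs. At 10 µM 0 of 26 member probe sets passed in each pair, beside 0.0171% of all probe sets for imazalil minus fenbuconazole, 0.120% for imazalil minus 2,4-D and 0.0440% for fenbuconazole minus 2,4-D. At an unadjusted p under 0.05 there were 4, 2 and 3 of 26, beside 9.19%, 8.27% and 6.47%. The DMSO arrays of both sets are copies of the same arrays, and their error is not part of these tests.

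For GDF15, fenbuconazole exceeded 2,4-D by 0.32 ± 0.076 (log2, SE, interval 0.17 to 0.47), and did not pass (limma adjusted p = 0.140). Imazalil exceeded 2,4-D by 0.29 ± 0.084 (interval 0.12 to 0.46, limma adjusted p = 0.268). The triazole and the imidazole were set apart by -0.032 ± 0.090 (imazalil minus fenbuconazole, interval -0.21 to 0.15, limma adjusted p = 0.936), which leaves room for a difference of either sign. The 4 member probe sets with an unadjusted p under 0.05 between the fungicides belonged to BBC3 (-0.35 ± 0.12, imazalil minus fenbuconazole), ZMAT3 (228315_PM_at, -0.37 ± 0.13), RRM2B (0.57 ± 0.23) and MDM2 (217373_PM_x_at, -0.35 ± 0.15), with limma adjusted p = 0.407, 0.435, 0.467 and 0.486. For imazalil minus 2,4-D they were GDF15 and BBC3 (-0.31 ± 0.13, adjusted p = 0.540). For fenbuconazole minus 2,4-D they were GDF15, MDM2 (217373_PM_x_at, 0.31 ± 0.14, adjusted p = 0.723) and ZMAT3 (219628_PM_at, -0.28 ± 0.13, adjusted p = 0.760). CDKN1A lay at -0.13 ± 0.092 for imazalil minus fenbuconazole, 0.020 ± 0.083 for imazalil minus 2,4-D and 0.15 ± 0.079 for fenbuconazole minus 2,4-D, with adjusted p = 0.670, 0.973 and 0.783.

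At the 8 doses below 10 µM, 0 of 208 tests of members passed in each pair, beside 0%, 0.00214% and 0.000611% of all tests in the same order of pairs (unadjusted 14, 16 and 10 of 208 beside 5.51%, 7.09% and 5.10%). The lowest adjusted p of any member in any comparison was 0.0985, for RRM2B with imazalil minus 2,4-D at 0.1 µM (-0.70 ± 0.19, interval -1.09 to -0.31, limma). The arrays of that imazalil group had a mean interquartile range of 3.59, and those of 2,4-D at 0.1 µM had 3.77 (log2). The part of the array spread in this difference was not tested.

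Other genes of the pathway were taken from 5 lists. None of their probe sets passed at 10 µM, in the F test, in the slope, against the lowest doses or at a lower dose (limma, adjusted p of 0.05 or higher, beside the shares of all probe sets given above). The list of other targets in the cell cycle, DNA repair and feedback (such as GADD45A, CCNG1, DDB2 and PPM1D) had 31 probe sets of 15 genes. Its median at 10 µM was -0.012 with fenbuconazole, -0.011 with imazalil and -0.0076 with 2,4-D. Other targets in apoptosis (such as BAX, PMAIP1 and TNFRSF10B) had 34 probe sets of 12 genes and medians of 0.037, -0.0038 and -0.0037. Those in metabolism and redox (such as TIGAR and SCO2) had 8 probe sets of 7 genes and medians of -0.011, 0.073 and -0.019.

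Regulators of p53 and of the DNA damage signal (such as MDM4, ATM and CHEK2) had 44 probe sets of 12 genes and medians of -0.021, 0.046 and -0.0058. Genes that are lowered through CDKN1A and the DREAM complex (such as CCNB1, CDK1 and MKI67) had 33 probe sets of 12 genes and medians of -0.077, 0.012 and -0.0051. At an unadjusted p under 0.05, beside the 4.40%, 5.44% and 4.07% of all probe sets in either direction, few probe sets of these lists stood apart from DMSO. With fenbuconazole 1 of 31 cell cycle probe sets and 1 of 44 regulators stood above it and 2 of 33 DREAM probe sets below it. With imazalil 2 of 44 regulators stood above it, and 2 of 44 regulators and 1 of 33 DREAM probe sets below it. With 2,4-D 2 of 31 cell cycle probe sets stood above it, and 1 of these 31 and 1 of 34 apoptosis probe sets below it. The other lists had 0 in either direction.

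The lowest unadjusted p of these lists belonged with fenbuconazole to USP7, which encodes a deubiquitinase of MDM2 and p53 (222032_PM_s_at, 0.46 ± 0.13, limma adjusted p = 0.780), and to PLK3, a stress-responsive kinase (229825_PM_at, 0.39 ± 0.13, adjusted p = 0.986). With imazalil they belonged to another probe set of USP7 (230967_PM_s_at, -0.38 ± 0.12, limma adjusted p = 0.716) and to RCHY1, a ubiquitin ligase of p53 (0.27 ± 0.095, adjusted p = 0.850). With 2,4-D they belonged to TNFRSF10C, a decoy receptor for TRAIL (-0.35 ± 0.13), and to PLK3 (204958_PM_at, -0.42 ± 0.15), both with an adjusted p of 1.00 in limma. Most of these probe sets were dim. The DMSO means of PLK3 229825_PM_at, USP7 230967_PM_s_at and TNFRSF10C were 2.42, 2.96 and 2.88, below the lowest array median (3.24). Those of USP7 222032_PM_s_at and PLK3 204958_PM_at were 3.66 and 4.24, whereas RCHY1 had 7.42.

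**Figure D4:**
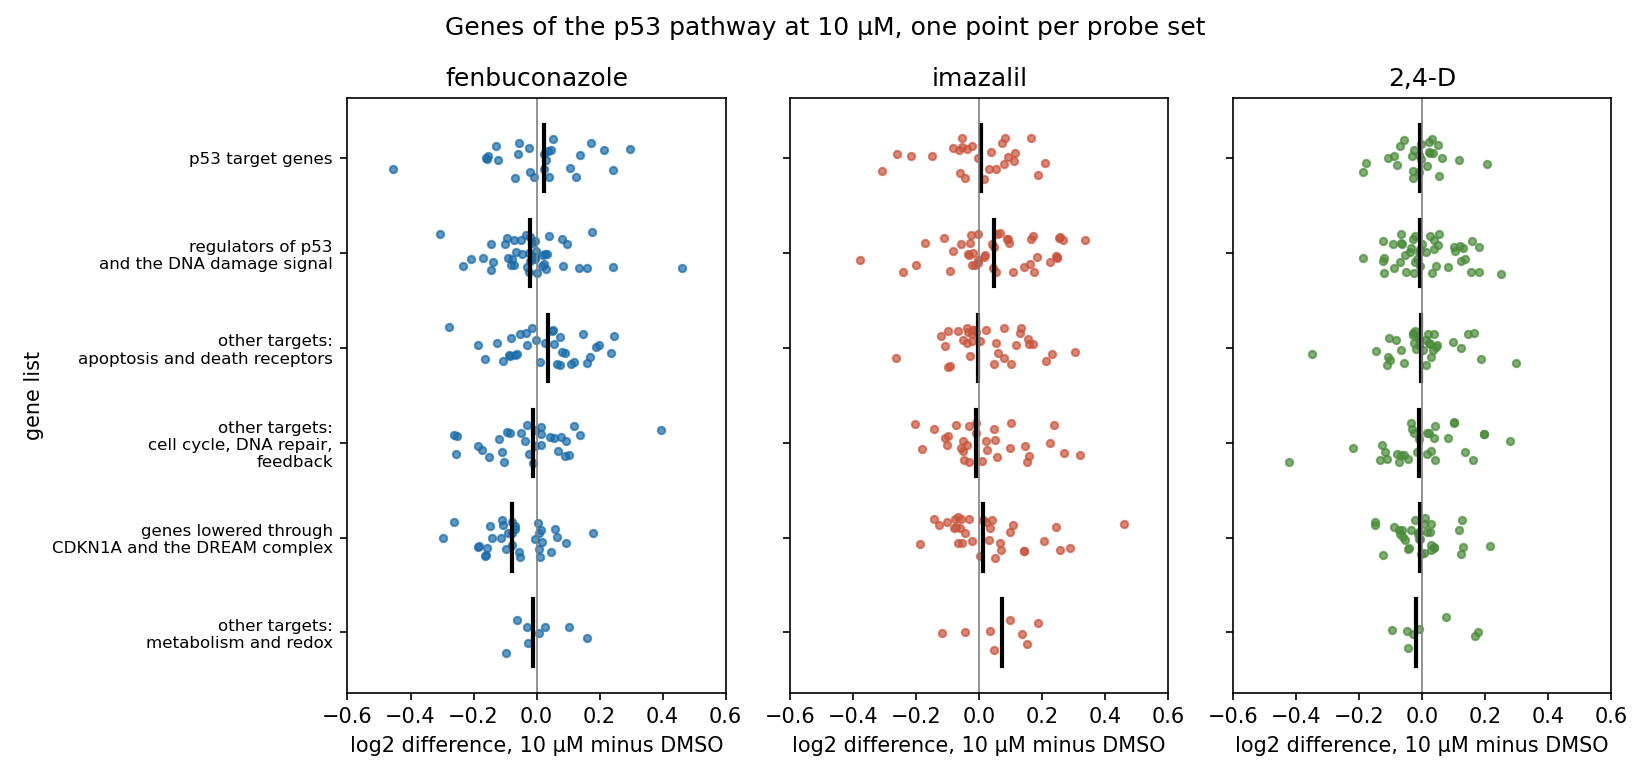
Log2 difference between 10 µM and DMSO (x axis) for every probe set of the p53 target genes and of 5 lists of other genes of the pathway (y axis), 1 panel per compound. Points are probe sets, spread vertically at random, and black bars are list medians, which lie between -0.077 and 0.073.

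The genes whose course over the 27 treated groups was most like that of CDKN1A were TBCC, LOC162137, MIR3976HG, AP1M2 and LYRM4, with Pearson r of 0.827, 0.763, 0.740, 0.728 and 0.727 (DMSO-centred group means, 1 probe set per gene). The groups share DMSO arrays, and these values are a description. Over the 81 single arrays the same genes had r of 0.336, 0.420, 0.416, 0.580 and 0.551. The order depended on the points used, as TBCC went from place 2 over group means to place 829 over arrays, counting CDKN1A itself as the first of 19774 genes. Of the other members, GDF15, TP53I3, BBC3, ZMAT3 and SESN1 had r of 0.427, 0.338, 0.252, 0.173 and 0.0068 over group means, while MDM2, FAS and RRM2B had -0.328, -0.330 and -0.624. Over arrays these were 0.297, 0.474, 0.135, 0.061 and -0.071, and -0.386, -0.108 and -0.496. GDF15 was in place 980 over group means and 1414 over arrays, and TP53I3 in place 2171 and 80. Over the 81 treated arrays the 36 pairs of members had r from -0.610 (MDM2 and TP53I3) to 0.740 (MDM2 and RRM2B), with a median of -0.0414. With 1 probe set per gene, the members therefore did not vary as 1 group over these arrays, which share normalization within a set. The arrays also differed in spread, with interquartile ranges from 3.47 to 3.80 (log2). The part of this spread in the r values was not tested. No member passed the threshold in these groups, so the r values cannot show how the members vary when p53 is active.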

How the data were processed

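HepG2 cells were profiled on Affymetrix HT HG-U133+ PM arrays. The authors deposited log2 values of 54715 probe sets, normalized by RMA within each compound's set per the labels. RMA and Partek stand in the submitters' processing notes, without version or settings. The 90 columns hold 84 different arrays, since copies of 3 DMSO arrays stand in each set (r between copies 0.99874 or higher, between different DMSO arrays 0.99648 or lower). For each set, lmFit and eBayes (limma 3.58.1, R 4.3.3) were fitted to its 30 columns with 1 mean per group, over the 40914 probe sets with 1 symbol, two-sided, with Benjamini-Hochberg adjustment within each contrast, a threshold of 0.05 and no filter. The slope used the 27 treated columns, and pairs of compounds used DMSO-centred values. Compounds and replicates were grouped by sample titles. Scripts were tested on simulated data. Alternatives were subsets of probe sets, a replicate block, an array spread covariate, a trended robust variance, joint quantile normalization and single replicates left out. The deposited table gives no genome build, and the promoter sequences are from RefSeq (GRCh38.p14). The rule for the p53 motif was chosen after 3 ways of matching had been tried on the members' windows. The 20-base ways were tried with limits of 2 and of 3 mismatches.

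The members, lists and tests were chosen with earlier results of these data known. All members were described, with full statistics for the 3 lowest p-values at 10 µM per compound and for the brightest probe set of CDKN1A, MDM2 and GDF15, with the 2 lowest p-values in the other lists per compound and with the 5 genes most like CDKN1A. Members with values outside this rule were described after these values were seen. FDXR, GLS2, TP63 and HNF4A, among others, were not analysed here. Same-numbered arrays of DMSO and 10 µM correlated in their deviations from the group means at r = 0.377, 0.2 and 0.0774 with fenbuconazole, at -0.133, 0.0791 and 0.142 with imazalil and at 0.402, 0.304 and 0.167 with 2,4-D. Each pair exceeded 0.1 for 2,4-D alone, and the block was kept as an alternative.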

Additional observations from a re-analysis of the deposited data

How the results depend on the processing

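The counts of member probe sets past the threshold stayed at 0 in all 231 refits of the 21 counts, with the replicate block too, as did those of the other genes of the pathway, whose alternatives were chosen after seeing the data. With the replicate block the difference of GDF15 at 10 µM was 0.24 with fenbuconazole (limma adjusted p = 0.897) and 0.21 with imazalil (adjusted p = 0.826). The lowest adjusted p of any count was 0.0612, without dim probe sets. With the array spread as a covariate, CDKN1A with imazalil became 0.067 and MDM2 (229711_PM_s_at) with 2,4-D became 0.0077, a reversal of sign. The median of the members with fenbuconazole ran from -0.032 to 0.040 when single replicates were left out, and was below 0 without replicate 1 or 2 and without DMSO replicate 2. It ran from -0.032 to 0.067 with imazalil and from -0.034 to 0.025 with 2,4-D. Under the same omissions the sign also turned for CDKN1A with imazalil (-0.11 to 0.080) and 2,4-D (-0.10 to 0.029), for MDM2 229711_PM_s_at with fenbuconazole (-0.26 to 0.00052) and 2,4-D (-0.19 to 0.13) and for MDM2 244616_PM_x_at with 2,4-D (-0.34 to 0.031). GDF15 kept its sign, at 0.16 to 0.30, 0.14 to 0.25 and -0.16 to -0.015 with fenbuconazole, imazalil and 2,4-D. Other named differences kept their sign but moved by over 1.5 times, with lows and highs of 0.094 and 0.30 for MDM2 211832_PM_s_at with fenbuconazole (lowest without DMSO replicate 2), 0.032 and 0.38 for MDM2 229711_PM_s_at with imazalil (without replicate 3 and without replicate 1), 0.086 and 0.28 for FAS 215719_PM_x_at (lowest without replicate 2) and -0.32 and -0.066 for MDM2 217373_PM_x_at with 2,4-D (without DMSO replicate 2 and 3). None of these differences passed the threshold in any fit. A total of 5 member probe sets had means at or below the highest array median (3.44), where signal over background limits what can be seen.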

Other observations

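GDF15 is also a target of the integrated stress response, so genes raised by ATF4 and CHOP were read in the same fits, a list chosen after seeing the data. None of the 8 genes (DDIT3, TRIB3, ASNS, CHAC1, ATF3, SESN2, PSAT1 and VLDLR, each by its brightest probe set) passed the threshold with any compound. With 10 µM fenbuconazole TRIB3, a pseudokinase induced by ATF4 and CHOP, had a difference of 0.35 ± 0.082 (log2, SE, limma adjusted p = 0.381), and ASNS, asparagine synthetase, had 0.26 ± 0.076 (adjusted p = 0.878). With imazalil these were 0.16 ± 0.073 and 0.11 ± 0.077, and with 2,4-D 0.084 ± 0.077 and -0.060 ± 0.068. DDIT3, which encodes CHOP, had -0.069, -0.0029 and -0.15 with fenbuconazole, imazalil and 2,4-D. The other genes were lower than ASNS with fenbuconazole, at 0.18 for ATF3, 0.094 for SESN2, 0.029 for CHAC1, -0.014 for PSAT1 and -0.034 for VLDLR. With imazalil they ran from -0.11 (CHAC1) to 0.15 (PSAT1), and with 2,4-D from -0.18 (CHAC1) to 0.041 (SESN2). SESN2 also stands in the list of other p53 targets in the cell cycle, DNA repair and feedback. Whether the integrated stress response or p53 lay behind the GDF15 values was not tested.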
